A study of Mus musculus with 9 samples.

Results

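The CpG positions described here were those methylated in over 80% of reads in mouse embryonic stem cells that carried wild-type Dnmt3a2. A position is the C of a CpG on a given strand of an autosome. It was taken when the WT table listed it above 80% at a coverage of 30 reads or more and when the WWD, R, C and TKO tables each covered it with 10 reads or more. Of 1194840 autosomal positions with these coverages, 7488 (0.627%) were over 80%. They were split by depth: at 2127 of them the TKO table had at least 0.5 times the WT coverage (full depth), and at 5361 it had less (reduced depth). The WT level chose these positions, so it is given as a description, and the comparisons rest on WWD, R and C, which the choice did not use. WWD and R levels can still follow the WT level over positions, so high values there are partly set by the choice. In WT the full-depth positions had a median of 82.9% and a highest level of 97.6%. Of them, 91 lay above 90% and up to 95%, and 7 above 95%. They were thus highly methylated, but none was fully methylated.

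The assay was reduced representation bisulfite sequencing (RRBS): DNA is cut with MspI at CCGG, unmethylated C is converted, and the fragment ends are read. All cells were J1 embryonic stem cells at passages 7 to 10 in which the Dnmt genes were knocked out (Dnmt TKO). The groups were WWD and R (mutant Dnmt3a2 constructs, so named), WT (wild-type Dnmt3a2) and C (no construct recorded), with 2 samples each, and TKO (no construct recorded), with 1 sample. By its title the study altered how Dnmt3a recognises histones, and the labels used here do not give the amino acid changes, the promoter or the number of clones. The labels tie both numbered samples of a group to a single table, so each value below comes from 1 table per group, called its pool, and there is no spread between replicates. Each test compares the reads of 2 pools and not conditions, and how much of each construct the cells made is not known from these tables. Coordinates are those of build mm9, and gene annotation of that build was not used here.

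Dnmt3a2 is the shorter isoform of Dnmt3a, an enzyme that puts methyl groups on unmethylated CpGs, and it is the main form in embryonic stem cells. A CpG has a C on each strand, and Dnmt3a methylates each strand in a separate step. In normal cells Dnmt1 copies methylation to the new strand after each replication. Cells without Dnmt1 lack that copying, so the methylation that an added Dnmt3a2 leaves can differ between the strands of a CpG.

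At the full-depth positions WWD had intermediate methylation and R high methylation. WWD averaged 41.9% ± 15.1, R 77.9% ± 8.10, WT 83.7% ± 3.04, C 0.827% ± 1.52 and TKO 0.185% ± 0.633 (SD over 2127 positions, not over replicates). The choice of positions over 80% sets the WT mean, so the gap between R and WT here is not a result. Over all 848314 eligible full-depth positions R averaged 13.2% and WT 13.2%. The Wilson 95% interval on the summed reads was 42.9 to 43.2% around 43.1% in WWD and 78.7 to 78.9% around 78.8% in R, and it covers counting error only. Median coverage was 128 reads in WWD, 150 in R, 116 in WT, 103 in C and 108 in TKO. In WWD the lowest position had 0%, the median 41.9% and the highest 90.9%. In R the lowest had 30.4%, the median 78.9% and the highest 100%. WWD and R thus overlapped in range, but their middle parts did not: the quartiles were 31.3 and 52.8% in WWD and 73.6 and 83.3% in R. The spread over positions was wider than read counts alone would give, since the SD from counting was 4.55 points in WWD and 3.79 points in R. In R, 920 of the 2127 positions (43.3%) were themselves over 80%, and in WWD 6 were (0.282%). Of all eligible full-depth positions, 0.373% were over 80% in R and 0.00118% in WWD. C was at 0% at 1361 positions and TKO at 1861, with highest values of 12.9% in C and 6.06% in TKO.

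**Figure D1:**
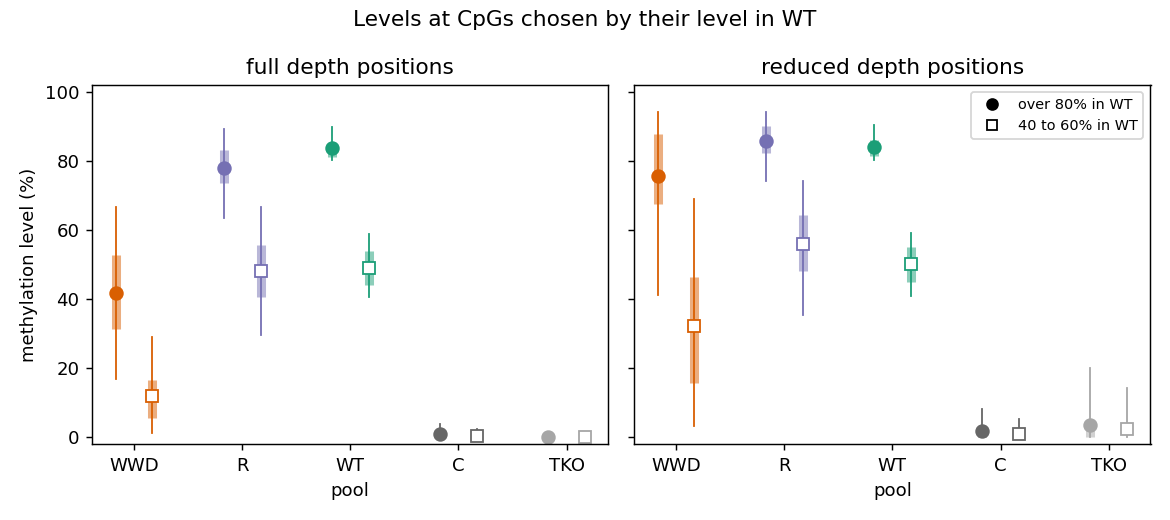
Methylation level (%) in the pools WWD, R, WT, C and TKO at CpGs over 80% in WT (filled circles) and at CpGs of 40 to 60% in WT (open squares). Markers are means, thick bars run between the quartiles and thin lines between the 5th and 95th percentiles over positions. At full depth (left) the circles stand at 41.9% in WWD and 77.9% in R, and at reduced depth (right) at 75.6% in WWD and 85.7% in R.

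WWD and R differed at most full-depth positions when tested read by read. Of all 1517816 CpG positions with 10 reads or more in both pools, 14.5% were called lower in WWD than in R (Fisher's exact test, two-sided; a call needed p under 0.01 after Benjamini-Hochberg adjustment and a difference of 25 percentage points). Among the positions over 80% in WT, 2332 of 7488 were called lower in WWD: 1645 of 2127 at full depth (77.3%) and 687 of 5361 at reduced depth (12.8%). None was called higher in WWD than in R, where 0.228% of all positions were. The median difference, WWD minus R, was -35.99 points at full depth and -6.65 points at reduced depth. At the sites of 40 to 60% in WT, 67145 of 78465 full-depth positions (85.6%) were called lower in WWD. The share called at the full-depth positions over 80% was thus above that of all positions and below that of the intermediate sites.

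Both mutant pools were far above the pool with no recorded construct. R was called higher than C at 2126 of the 2127 full-depth positions and at 7486 of all 7488, where 25.3% of the 1657507 positions tested were. It was called lower than C at 0, where 0.000784% of all positions were. WWD was called higher than C at 1801 full-depth positions (84.7%) and at 7059 in all, where 9.89% of 1501339 positions tested were. It was called lower than C at 0, where 0.000266% of all positions were. At the full-depth sites of 40 to 60% in WT, 8.24% were called higher in WWD than in C, and 97.7% in R than in C. The comparisons with WT share the reads that chose the positions, and nothing is read from their counts. WWD was called lower than WT at 2524 positions and higher at 0, where 13.4% of all positions tested were lower and 0.461% higher. R was called lower than WT at 16 and higher at 0, where 0.0438% were lower and 0.234% higher.

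WWD kept a larger share of the R level at these positions than at intermediate sites. The ratio of mean levels, WWD to R, was 0.537 at the full-depth positions over 80%. It was 0.248 at sites of 40 to 60% in WT, weighted to the same number of covered CpGs per 1 kb tile and the same WT coverage. The weighted sites had 11.9% in WWD, 48.03% in R, 0.437% in C and 0.206% in TKO. The positions over 80% were thus higher by 29.9 points in WWD, by 29.9 points in R and by 0.391 points in C, while TKO differed by -0.021 points. On single autosomes the ratio lay between 0.51 (chromosome 15) and 0.572 (chromosome 3) at the positions over 80%, and between 0.242 and 0.262 at the unweighted intermediate sites. It was higher at the positions over 80% on 19 of 19 autosomes. Without replicates these ratios have no test.

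The WWD level was higher at higher WT levels along a curve. Positions are binned here by the WT value that also chose them, so distances from WT within a bin are description only. At full depth, WWD had 10.9% where WT had over 45 to 50%, 24.1% at over 65 to 70%, 40.5% at over 80 to 85% and 50.04% at over 90 to 95%. R had 46.6, 65.3, 77.3 and 81.4% in the same bins. The ratio of WWD to R was lowest, at 0.172, where WT had over 15 to 25%, and reached 0.615 at over 90 to 95% in WT. C was higher too, with 0.426, 0.502, 0.81 and 0.985% in the same 4 bins. TKO had 0.203, 0.184, 0.185 and 0.152% there. The values just inside and outside the threshold were close: WWD had 39.01% at over 80 to 82% in WT and 36.5% at over 78 to 80%, and R had 76.3 and 74.9%. WWD also differed between positions of like R level when these were split by their WT level. Among full-depth positions with over 75 to 80% in R, WWD averaged 41.5% at the 534 that were over 80% in WT and 33.8% at the 3460 with over 60 to 80% in WT. The mean R level in that bin was 77.7 and 77.3% at these positions. In 5 bins of the R level between 65 and 90% this difference in WWD was 6.68 to 7.69 points, with no test. The split used the WT level that chose the positions, and WWD was higher where WT was higher. The R level carries counting error, so binning by it does not remove this. A difference of this sign was thus favoured by the split, and its size is description only.

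**Figure D2:**
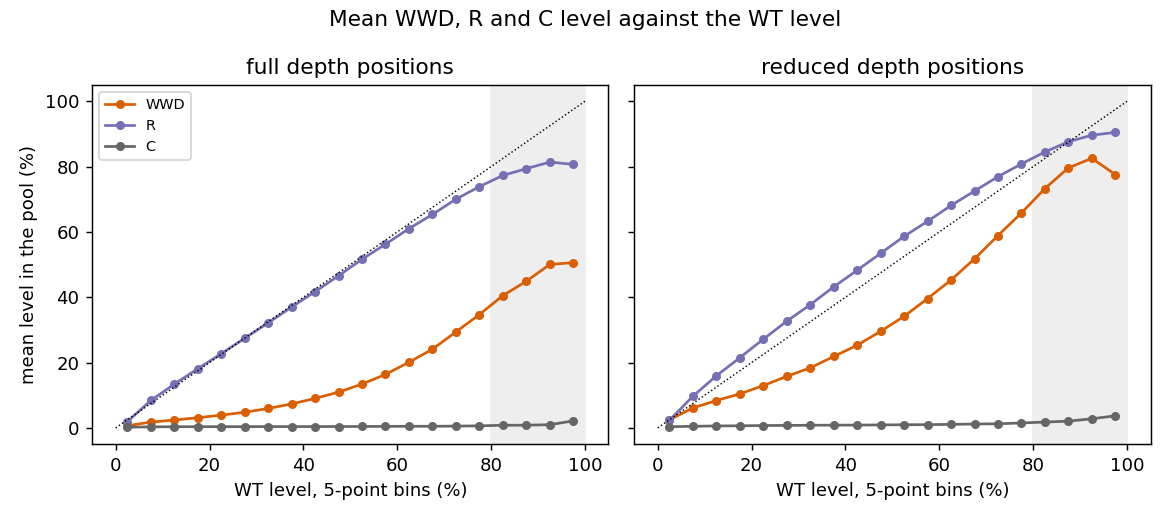
Mean level (%) of WWD, R and C over CpG positions in 5-point bins of the WT level, at full depth (left) and reduced depth (right). The grey band marks over 80% in WT, and the dotted line marks equality with WT. At full depth the WWD curve reaches 40.5% at over 80 to 85% in WT, where R has 77.3%, and at reduced depth 73.3%, where R has 84.5%.

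The reduced-depth positions looked different, and most of those that could be placed sat at the first CpG of a read. There WWD averaged 75.6% ± 16.5, R 85.7% ± 6.22, WT 84.2% ± 3.24, C 1.93% ± 3.15 and TKO 3.57% ± 7.32 (SD over 5361 positions). Median coverage was 69 reads in WWD, 162 in R, 150 in WT, 53 in C and 15 in TKO. WWD was over 80% at 2626 of them (49.0%) and R at 4483 (83.6%). Of all eligible reduced-depth positions, 1.95% were over 80% in WWD and 4.01% in R. The ratio of WWD to R was 0.882, and 0.578 at the weighted sites of 40 to 60%. Positions over 80% made up 0.251% of eligible positions at full depth and 1.55% at reduced depth. The class is defined by coverage in TKO and WT, and coverage in WWD and C was also low in it. The part of this in the levels was not tested.

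Place in the read was taken from isolated runs of covered positions, on the assumption that the outermost CpG on the strand that is read belongs to the MspI site. The MspI sites of the genome were not used here, so this assumption was not tested, and all values by place rest on it. Of the full-depth positions over 80%, 529 of 1166 that could be placed (45.4%) were such first CpGs, against 55.1% of all placed full-depth positions. At reduced depth 2536 of 3144 (80.7%) were first CpGs, against 52.6% of all placed reduced-depth positions. First CpGs at reduced depth held 79.0% in WWD, 86.5% in R, 2.13% in C and 4.16% in TKO. CpGs 5 to 50 bp inside held 61.9% in WWD, 82.5% in R, 1.08% in C and 0.415% in TKO. At full depth the order of WWD was the other way: first CpGs held 35.3% and inside CpGs 46.2%, with 77.2 and 78.1% in R. WWD was therefore higher at reduced than at full depth both at first CpGs and inside, and by less inside. Taken inside the read and at full depth, WWD to R was 0.592 at the positions over 80% and 0.292 at the weighted sites of 40 to 60%.

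**Figure D3:**
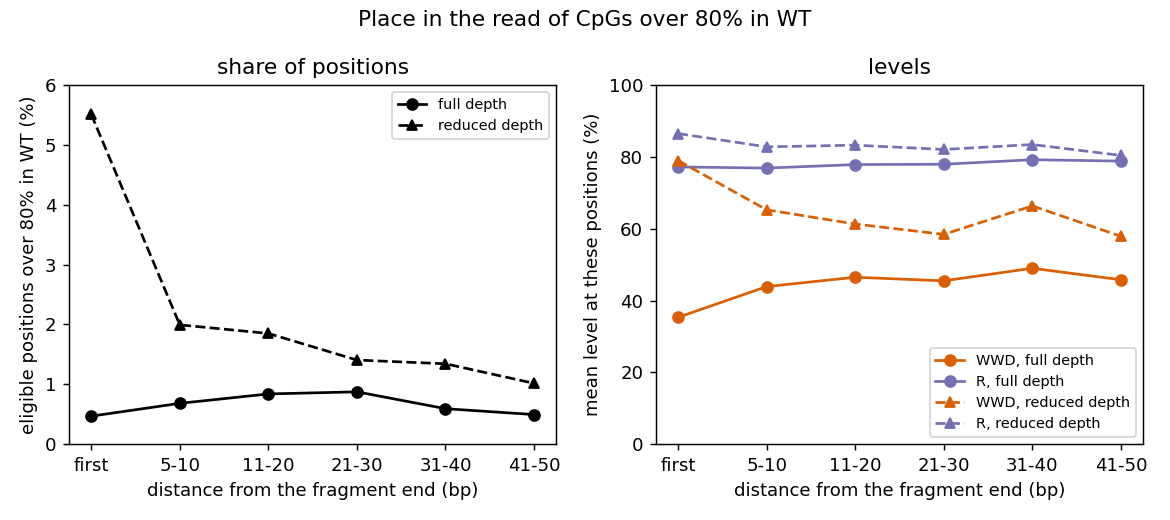
Share of eligible positions that were over 80% in WT (left, %) and mean WWD and R levels at them (right, %), against the distance in bp from the end of an isolated fragment. Circles with full lines are full-depth positions and triangles with broken lines reduced-depth positions. At reduced depth the share was 5.51% at the first CpG and 1.02% at 41 to 50 bp, while at full depth it stayed between 0.469 and 0.875%.

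The opposite strand of the same CpG was far less methylated. Of the 2127 full-depth positions, 396 had 10 reads or more on the opposite strand in all 5 pools, with the opposite strand at full depth at 82.3% of these, and at 15 that strand was itself over 80% in WT with 30 reads or more. At the 396 CpGs the chosen strand averaged 41.7% and the opposite strand 13.7% in WWD. In R the chosen strand averaged 78.6% and the opposite strand 46.7%. In WT they averaged 83.8 and 46.95%, where the first value was selected. The chosen strand was the higher at 364 of 396 CpGs in WWD and at 372 in R. It was higher by 20 points or more at 272 in WWD and 256 in R. At 14832 full-depth sites of 40 to 60% it was the higher at 8802 in WWD and 9087 in R. There it was higher by 20 points or more at 1205 and 5024. In WWD the chosen strand of these sites averaged 12.3% ± 8.60 (SD over sites), so a lead of 20 points was out of reach at many. Weighted, these sites had 12.1% on the chosen and 13.7% on the opposite strand in WWD, and 48.3 and 40.4% in R. The strand was chosen for a high WT level, and WWD and R levels were higher where WT was higher. A higher chosen strand in WWD and R was thus favoured by the choice, and the sizes are description only.

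End repair rebuilds bases at the ends of MspI fragments, so the CpGs of short fragments (100 bp or less) that lay 5 bp or more from either end were also taken alone. There were 84 with the chosen strand at full depth, and the opposite strand was at full depth at 69.05% of them. The chosen strand had 47.1% ± 14.2 and the opposite strand 16.3% ± 16.3 in WWD (SD over 84 CpGs). In R the chosen strand had 79.4% ± 7.09 and the opposite strand 44.8% ± 24.2. With both strands at full depth there were 58 CpGs, where the chosen strand had 46.55% and the opposite strand 14.7% in WWD, with 79.6 and 44.2% in R. Over the 84, the opposite strand in WT had 47.1% ± 22.8, with a median of 46.8%. Its values in WT were broad, with 13 of the 84 at 20% or less, 20 between 20 and 40%, 23 between 40 and 60%, 23 between 60 and 80% and 5 higher. Weighted to the same tile density and coverage, the opposite strand of 2773 such sites held 11.8% in WWD, 38.3% in R and 37.9% in WT. Inside short fragments the opposite strand was thus higher beside the positions over 80%, by 4.47 points in WWD, 6.49 in R and 9.15 in WT. Over all 396 CpGs with both strands, the same weighted difference was 0.005 points in WWD, 6.25 in R and 7.18 in WT. The larger set thus showed almost no difference in WWD, but its opposite strands differed in depth class. They were at full depth at 82.3% of the 396 CpGs and at 75.3% of the 14832 sites. Inside short fragments with both strands at full depth, the opposite strand had 14.7% in WWD beside the 58 CpGs. Beside 1802 such sites of 40 to 60%, unweighted, it had 10.3%. These differences have no test. The chosen strands differed by more, with 79.4% at the positions over 80% and 49.7% at the weighted sites in R. At reduced depth 87 CpGs lay inside such fragments, and the chosen strand had 60.4% and the opposite strand 15.8% in WWD, with 81.3 and 43.5% in R.

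**Figure D4:**
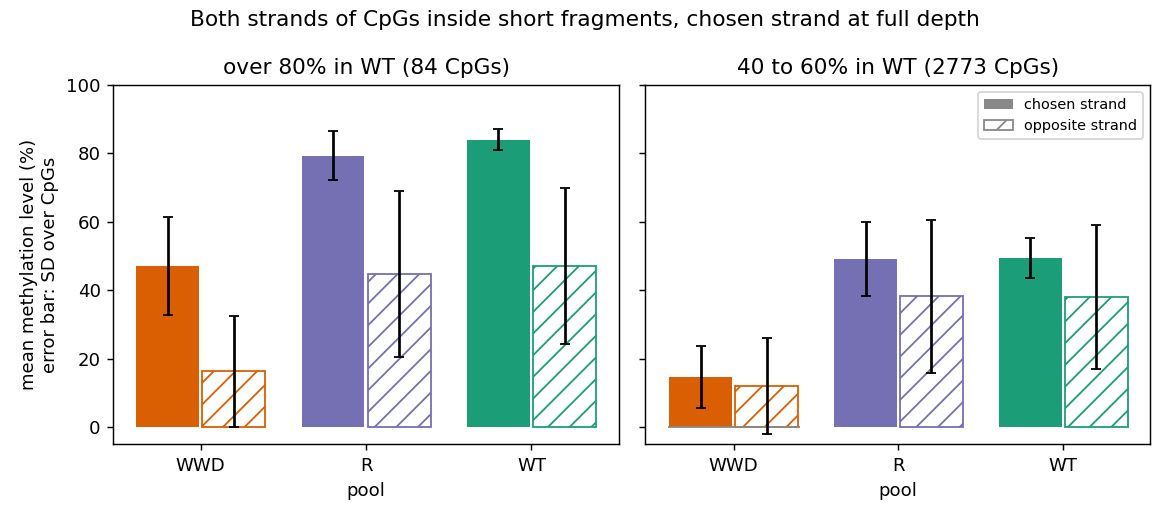
Mean methylation level (%) of the chosen strand (filled bars) and the opposite strand (hatched bars) of the same CpG in WWD, R and WT, for CpGs inside short fragments whose chosen strand was at full depth. Error bars are SDs over CpGs; 84 CpGs over 80% in WT stand on the left and 2773 of 40 to 60% on the right. On the left R has 79.4% on the chosen and 44.8% on the opposite strand.

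Neighbouring CpGs were also less methylated than the positions themselves. Of the 2127 full-depth positions, 1692 had another CpG within 50 bp on the same strand, where the same reads can cover both. In WWD these positions averaged 43.5% and their neighbours 14.8% ± 12.2 (SD over 1692 positions, the mean of the neighbours taken for each). In R the positions averaged 78.02% and their neighbours 47.5% ± 18.3. The position was above the mean of its neighbours at 1600 of 1692 in WWD and 1637 of 1692 in R. The choice by a high WT level favours this order too, so these counts are description only. Among full-depth sites of 40 to 60%, 37564 of 58723 were above theirs in WWD and 42148 in R. Of 3144 neighbours of the positions over 80%, 199 were themselves over 80% in WT, against 1012 of 109629 beside the intermediate sites. Neighbours on the opposite strand, found for 605 of the 2127 positions, come from other reads and gave 20.7% ± 20.4 in WWD and 49.6% ± 20.99 in R. Neighbours of either depth class were taken on both strands. TKO averaged 0.767% in opposite-strand neighbours and 0.188% in same-strand ones, and the part of depth in the WWD values was not tested. Against weighted sites of 40 to 60%, same-strand neighbours of the positions over 80% were higher by 4.74 points in WWD and 10.2 points in R, and opposite-strand neighbours by 5.18 and 8.60 points.

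Neighbours on the same strand were lower the farther away they lay. In R it was 52.95% at 2 to 10 bp, 49.9% at 11 to 20 bp, 46.4% at 21 to 30 bp, 43.2% at 31 to 40 bp and 42.5% at 41 to 50 bp. In WWD it was 19.3, 16.4, 14.3, 13.3 and 11.4% over the same distances. The positions with a neighbour at 2 to 10 bp averaged 77.8% in R themselves, so the gap to the nearest neighbours was wider than that between the nearest and the farthest. On the opposite strand R had 50.6, 53.4, 49.4, 44.1 and 46.8% over these distances, without a steady order. Same-strand neighbours of full-depth sites of 40 to 60% were also lower farther away. In R they had 39.2% at 2 to 10 bp and 33.9% at 41 to 50 bp, and in WWD 11.6 and 8.93%.

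**Figure D5:**
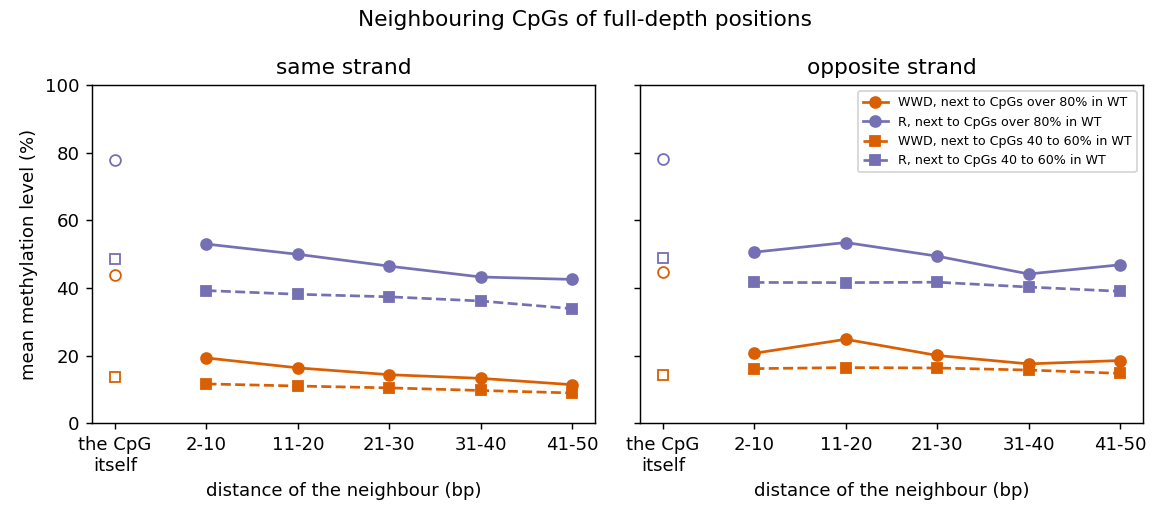
Mean level (%) of CpGs neighbouring full-depth positions over 80% in WT (circles, full lines) and of 40 to 60% in WT (squares, broken lines), against distance in bp, on the same strand (left) and on the opposite strand (right). Orange is WWD and violet R, and open symbols show the positions themselves. In R, next to positions over 80%, same-strand neighbours have 52.95% at 2 to 10 bp and 42.5% at 41 to 50 bp.

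The positions lay mostly alone in their tile, and in tiles with few covered CpG positions. The 2127 full-depth positions fell in 1993 tiles of 1 kb, of which 1870 held 1, 112 held 2 and 11 held 3, and the median distance to the nearest other one was 116 kb. They were rare, at 0.251% of eligible full-depth positions, and yet 196 of the 2127 had another position over 80% within 50 bp. Where fewer than 5 CpG positions were covered per tile, 1094 of 190137 eligible full-depth positions (0.575%) were over 80% in WT. In tiles of 5 to 9 and 10 to 19 covered CpGs the shares were 0.551 and 0.204%, and in tiles of 20 to 39 the share was 0.00614% (9 positions). In tiles of 40 or more it was 0 of 255200, which allows a share of up to 0.00118%. The sites of 40 to 60% were spread in a similar way over these 4 classes of tile: 51.4, 37.4, 10.8 and 0.423% of the positions over 80% and 50.9, 35.1, 12.5 and 1.46% of the intermediate sites fell in them. These classes count the positions covered in all 5 pools, and the CpG density of the genome sequence was not used here. CpG-dense DNA includes the CpG islands, which usually stay unmethylated in embryonic stem cells. Within the chosen positions WWD averaged 40.2% in the sparsest tiles, 43.1% in those of 5 to 9, 45.1% in those of 10 to 19 and 51.4% in those of 20 to 39, with 77.5, 78.2, 78.5 and 80.8% in R. The strands were alike, with 1066 forward and 1061 reverse positions. The share of eligible positions ran from 0.216% on chromosome 7 to 0.276% on chromosome 13. The mean on single autosomes was 38.97 to 44.8% in WWD and 76.4 to 79.1% in R.

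The lists of positions over 80% in R and in WT overlapped in part. With 30 reads or more in both, 916 full-depth positions were over 80% in both pools, which is 43.3% of the 2117 from WT and 29.1% of the 3147 from R. The 3147 averaged 75.3% in WT. In WWD 9 full-depth positions were over 80% with 30 reads or more, of which 5 were also over 80% in WT. Of all 848314 eligible full-depth positions, 0.251% were over 80% in WT. With 10 reads or more, 0.373% of them were over 80% in R and 0.00118% in WWD.

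In clusters of these positions, CpGs close together on the same strand could have unlike levels. The 3 tiles with the most full-depth members, ties taken by summed WT coverage, lay on chromosomes 8, 16 and 3. In the tile on chromosome 8 from 12214001 to 12215000 all 8 covered positions were at full depth. On its reverse strand the CpGs at 12214310, 12214314 and 12214323 had 68.0, 65.9 and 49.6% in WWD and 83.4, 90.9 and 81.8% in R. The next CpGs on that strand, at 12214337 and 12214344, had 5.80 and 7.69% in WWD and 41.5 and 50.9% in R. Coverage there was 125 to 138 reads in WWD, so WWD dropped steeply between 12214323 and 12214337. C had at most 2.22% and TKO at most 0.62% in this tile.

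In the tile on chromosome 16 from 13381001 to 13382000 the strands of a single CpG differed. Its reverse C at 13381649 had 43.8% in WWD (162 reads), 70.7% in R and 82.7% in WT. Its forward C at 13381648 had 19.03% in WWD (226 reads), 61.0% in R and 64.9% in WT. The forward CpGs at 13381654 and 13381663 were over 80% in WT, with 54.5 and 45.9% in WWD and 88.0 and 80.9% in R. In the tile on chromosome 3 from 51875001 to 51876000, forward CpGs at 51875855, 51875883 and 51875894 had 24.6, 53.1 and 63.1% in WWD and 77.6, 94.6 and 88.5% in R. The reverse CpG at 51875963 had 1.46% in WWD, 13.3% in R and 11.5% in WT.

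Single positions covered a wide range in WWD. The following come from 344 full-depth positions with 30 reads or more in all pools and on the opposite strand in WWD, R and WT. The highest WWD level was on chromosome 17 at 84402031, forward strand: 81.5% in WWD (249 reads, Wilson 95% interval 76.2 to 85.9), 86.0% in R, 88.02% in WT, 1.90% in C and 0% in TKO (0 of 357 reads, which allows up to 0.84%). The reverse C of that CpG had 5.14% in WWD (175 reads), 23.8% in R and 26.5% in WT, so WWD was high on the forward strand alone. On chromosome 5 at 115403425, reverse strand, WWD had 77.9% and R 85.3%, and the forward C had 2.96% in WWD and 16.9% in R. Chromosome 3 at 101103080, forward strand, had 74.55% in WWD and 87.3% in R, with 2.08% in WWD and 29.55% in R on the reverse strand. In these 3 CpGs the strand difference was wide in every pool with a construct. Those on chromosomes 17 and 5 could not be placed in a read, and the part of end repair was not tested. Chromosome 9 at 102981203 had 76.8% in WWD and 93.7% in R on the forward strand. Its reverse strand, with 75.9% in WWD and 89.9% in R, was at reduced depth, with 16 reads in TKO and 148 in WT. Chromosome 11 at 57537681, forward strand, had 74.1% in WWD and 89.9% in R, with 45.8% in WWD and 83.1% in R on the other strand.

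At the other end, chromosome 7 at 80454120, reverse strand, had 0% in WWD (0 of 49 reads, which allows up to 6.12%), 74.04% in R and 85.4% in WT. The difference of -74.04 points between WWD and R had an adjusted p of 4.72e-19 by Fisher's exact test. This position and the next 4 were picked for their low WWD level, so their tests are description only. The forward C of that CpG, at reduced depth with 34 reads in TKO and 71 in WT, had 2.22% in WWD, 58.7% in R and 42.25% in WT. The next lowest in WWD, on chromosome 19 at 6311240, chromosome 4 at 149257156, chromosome 7 at 134024049 and chromosome 19 at 41942114, had 9.56, 10.45, 10.7 and 13.1% in WWD and between 59.3 and 73.4% in R. Each was called lower in WWD. The weighted sites of 40 to 60% averaged 11.9% in WWD, so the position on chromosome 7 at 80454120 lay below that mean and the other 4 within 3 points of it.

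The lowest R level of the 344 lay on chromosome 6 at 66825721, with 24.0% in WWD, 56.0% in R (50 reads) and 84.5% in WT. Chromosomes 5 at 73539381, 15 at 91685536, 8 at 109337977 and 11 at 52926683 had 32.6, 14.15, 46.75 and 18.5% in WWD and 56.9, 57.1, 57.1 and 58.0% in R. The positions on chromosomes 15 and 11 were first CpGs of a read, and their opposite strands had 1.92% or less in R. End repair rebuilds bases at fragment ends, so these opposite-strand values may not show methylation in the cells. This was not tested. The highest C level of all 2127 was 12.9% (62 reads), on chromosome 2 at 165669595, where WWD had 15.4%, R 78.3% and TKO 0% (24 reads, which allows up to 12.5%). The next were 11.9% on chromosome 8 at 108232962 and 11.6% on chromosome 6 at 127741718, where TKO had no methylated read among 33 and 35 reads (limits of 9.09 and 8.57%). Intervals and limits cover counting error only, since copies made by PCR cannot be told apart.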

How the data were processed

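RRBS libraries of 9 samples in 5 groups were used through 5 of 6 deposited tables. Bismark, methylKit and build mm9 are named in the submitters' processing notes, without versions or order. Per the file headers, the authors' tables hold, per CpG position and strand, the read count (coverage) and the percent read as C. Each table lists coverages of 10 or more. The labels name a single table for both numbered samples of WT, WWD, R and C. In all, 8 columns were not used: those of a table tied to no sample and the percent of T.

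Methylated reads were recovered as coverage times the percent of C, rounded. Two-sided Fisher's exact tests ran over all positions covered by 10 reads or more in both pools, without mitochondrial DNA, with Benjamini-Hochberg adjustment (Python 3.11.15, numba 0.67.0, scipy 1.17.1), and were tested on simulated data. For WWD against R, with the lower pool set at 10%, 8 of 50 positions changed by 25 points were called. At 40 points 27 of 50 were called and at 60 points 44 of 50, so many differences near the threshold were missed. Of 1517616 unchanged positions 0 were called. Sites of 40 to 60% were weighted to strata of tile density and WT coverage (30, 60 and 120 reads as lower bounds). Neighbours and opposite-strand Cs needed 10 reads in all pools. Fragments were runs of WT positions of 40 to 400 bp, with gaps of at most 500 bp, from a forward to a reverse position. The reverse C of a CpG is at the forward base plus 1.

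The positions and lists were chosen with earlier results of these data known. Place in the read was examined after the levels. Named positions were the 5 highest and 5 lowest in WWD and the 5 lowest in R among those well covered on both strands, the 3 highest in C and the 3 tiles with most full-depth positions. Alternatives covered coverage, depth class, weighting, distance and call thresholds. Sequence context and genes were not analysed here.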

Additional observations from a re-analysis of the deposited data

How the results depend on the processing

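No paired analysis was possible because each group has a single table. Leaving out a sample was not possible for the same reason. These directions held in each setting run for them: WWD under R, both above C, the ratio of WWD to R higher at positions over 80% than at sites of 40 to 60%, and opposite strands and neighbours below the chosen positions. The cause of each shift was not tested.

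Full-depth levels in WWD, R and C and the ratio of WWD to R were 47.8%, 79.6%, 1.01% and 0.600 with full depth by TKO and C, and 50.1%, 81.3%, 1.07% and 0.616 at positions over 90% in WT. A WT coverage of 50 gave 42.9% in WWD, 78.4% in R and a ratio of 0.546. Pooled reads gave 43.1%, 78.8% and 0.547. Inside the read, chosen after seeing the data, they were 46.2%, 78.1% and 0.592. At the sites of 40 to 60% the ratio was 0.267 with full depth by TKO and C, 0.25 with pooled reads, 0.249 without weighting, 0.292 inside the read and 0.253 with place added to the strata.

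In R the opposite strand had 42.9% with full depth by TKO and C, 45.3% where it was not itself over 80% in WT and 44.8% inside short fragments. Neighbours in R had 51.1% within 20 bp, 45.7% without those over 80% and 49.6% on the opposite strand. Positions called lower in WWD than in R numbered 1084 at 40 points and 687 at reduced depth. Full-depth positions called higher than C numbered 2126 in R and 1801 in WWD. Of the 18 single positions named, 3 lost their call for WWD against R at 40 points and 2 gained it at 10 points. Depth limits the reduced-depth positions most, where TKO had a median of 15 reads.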
